A study of Mus musculus with 16 samples.

Results

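The comparison described here is that of mouse tibialis anterior muscle at 4 h and at 1 h after an injection of saline alone, 8 of the 16 arrays of the series. The 4 arrays titled saline 4 h were set against the 4 titled saline 1 h, with the titles as the rule. Each array held the RNA of 1 mouse. All mice were wild-type C57BL/10 ScSn males of 6 to 7 weeks. The saline mice had 1 intraperitoneal injection of sterile saline, and the remaining 8 mice, 4 at 1 h and 4 at 4 h, had the β2-adrenoceptor agonist formoterol (100 μg/kg) in the same volume of saline. Injections were given about 3 h into the light phase, so the muscles were taken at about 4 h and 7 h of it. Time after the needle and handling, and time of day, moved together in this design and cannot be told apart, and no array held an uninjected mouse.

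RNA was measured on 46K Sentrix bead arrays, in which a labelled copy of the RNA binds probes carried on beads. The value used throughout is the ratio of a probe's signal to the median signal of the tested probes on its own array. A ratio of 1 is therefore the level of the middle tested probe, and ratios of different probes cannot be ranked against each other. Of 46120 probes, 7596 reached the top detection score of 1 in no fewer than 4 arrays and were tested. The arrays lay on 3 slides. Slide 1 carried saline 4 h replicates 1 to 3, slide 2 saline 4 h replicate 4 with saline 1 h replicates 1 and 2, and slide 3 saline 1 h replicates 3 and 4, so that time was partly confounded with slide and only slide 2 held both times. A pair of saline 4 h arrays stood apart. Replicate 2 had the highest signal over background (3.74) and replicate 4 the lowest (2.33) of all 16 arrays, and their median distances from the group mean, 0.136 and 0.119 on the log2 scale, exceeded the 0.0560 to 0.0827 of the other 14. The markers of fast fibre, the type that makes up most of this muscle, were present in every mouse, with Actn3 (α-actinin 3) at ratios of 37 to 48.6 at 1 h and 37 to 45.2 at 4 h.

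Skeletal muscle keeps its own circadian clock, in which CLOCK and BMAL1 switch on genes through E-box sequences, their products PER and CRY shut them off, and the ROR and REV-ERB receptors act on a further element. The clock drives output factors such as DBP and NFIL3 and, beyond them, genes of fuel use. Glycogen, the muscle's store of glucose, is built and broken down by enzymes that phosphorylation switches on or off. Handling and injection are known to raise glucocorticoids, to which metallothioneins, Cebpb and Foxo1 respond.

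Few probes passed the test between the times. By limma's moderated test with Benjamini-Hochberg adjustment over all tested probes, 7 of 7596 probes (0.0922%) were called at an adjusted p under 0.05, 2 higher (0.0263%) and 5 lower (0.0658%) at 4 h. Of the 7, 3 changed 1.5-fold or more (0.0395%). Of these 7 probes 4 are described here, that of Ppp1r3c and those of 3 transcripts without a gene name. At an unadjusted p under 0.05 there were 1050 probes (13.8%), 419 higher (5.52%) and 631 lower (8.31%). The 4 mice of one time did not overlap with the 4 of the other at 382 probes (5.03%), 142 higher (1.87%) and 240 lower. In all, 49 probes (0.645%) differed 1.5-fold or more called or not, and the median absolute change over all probes, 0.0905 on the log2 scale, was about the size of the median standard error of 0.0906.

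**Figure D1:**
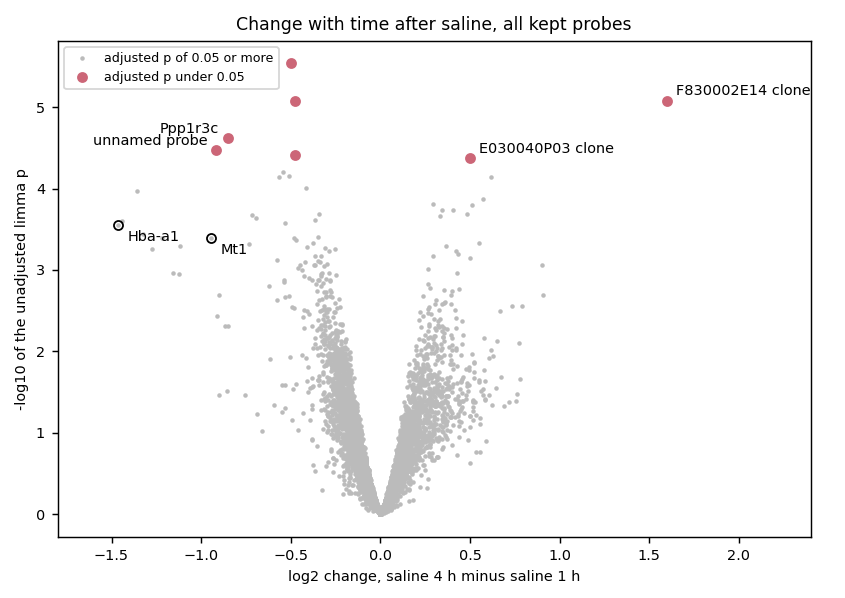
Log2 change from saline 1 h to saline 4 h (horizontal axis) against -log10 of the unadjusted limma p (vertical axis), 1 point a probe for 7596 probes. The 7 called probes are filled, those described in the text carry a name, and Hba-a1 and Mt1, which were not called, are circled.

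Ppp1r3c, which encodes the protein that targets protein phosphatase 1 to glycogen and favours glycogen synthesis, fell 1.81-fold. It read 15.7, 18.5, 24 and 25.3 at 1 h and 8.78, 11.7, 11.9 and 13.5 at 4 h. All 4 mice at 4 h were lower than all 4 at 1 h, although the 1 h mice on slide 2 (the lower pair) stood nearer to them than those on slide 3. The log2 change was -0.85 (SE 0.15, limma adjusted p = 0.0459) over all slides and -0.33 within slide 2. Leaving out 1 saline array at a time gave an adjusted p of 0.0230 to 0.141, and the call was lost without any 1 of saline 1 h replicates 2, 3 and 4 or saline 4 h replicates 1, 2 and 3. With slide as a fixed block no probe of the array was called and 262 (3.45%) had an unadjusted p under 0.05. This probe was named by matching its formoterol to saline ratios with those printed for the gene, which was chosen for its response to formoterol on these same arrays. The 250 bases before the start of Ppp1r3c (RefSeq, GRCm38.p6, chr19:36736605-36736854, minus strand) are shown because it was a called gene with a promoter entry in the table used. The E-box CACGTG, in capitals, begins 104 bases before the start.

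Ppp1r3c: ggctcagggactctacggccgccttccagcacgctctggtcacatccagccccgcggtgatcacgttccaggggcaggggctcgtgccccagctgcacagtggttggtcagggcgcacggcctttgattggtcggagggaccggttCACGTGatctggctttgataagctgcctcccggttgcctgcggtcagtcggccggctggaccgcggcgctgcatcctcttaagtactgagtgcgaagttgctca

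The same E-box, which reads alike on both strands, was in 6.02% of 32851 promoter windows of 250 bases, so its presence describes the sequence and no more. Entries for Rps27a and Csnk1d were not among them. The Ubb window held none of the 5 motifs searched on both strands, which were the E-box CACGTG, the D-box TTANGTAA, the cAMP response element TGACGTCA, the ROR element TAGGTCA and the heat shock element GAANNTTC.

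The remaining called probes carried no gene name. The probe of RIKEN clone F830002E14 had the largest rise among the 7596 tested probes, from 2.04, 2.09, 2.28 and 2.00 at 1 h to 4.48, 6.35, 9.92 and 5.75 at 4 h. The 1 h mice were within a narrow band and the 4 h mice spread over a wide one, with no overlap, and the change was 1.60 on the log2 scale or 3.02-fold (SE 0.26, limma adjusted p = 0.0211; 1.48 within slide 2). The probe of RIKEN clone E030040P03 read 0.495 to 0.557 at 1 h and 0.627 to 0.837 at 4 h (log2 0.50, SE 0.09, limma adjusted p = 0.0460), and was above the 0.99 detection score on 1 of the 4 arrays at 1 h and on all 4 at 4 h. The probe scl50117.17_16-S read 1.00 to 1.35 at 1 h and 0.471 to 0.843 at 4 h (log2 -0.92, SE 0.17, limma adjusted p = 0.0460). None of the 3 was called when saline 1 h replicate 2 or 4 or replicate 3 of saline 4 h was left out, with adjusted p up to 0.0994, 0.105 and 0.141. The call on E030040P03 was also lost without saline 1 h replicate 1 or 3 or replicate 1 of saline 4 h, and that on scl50117.17_16-S without replicate 1 or 2 of saline 4 h.

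**Figure D2:**
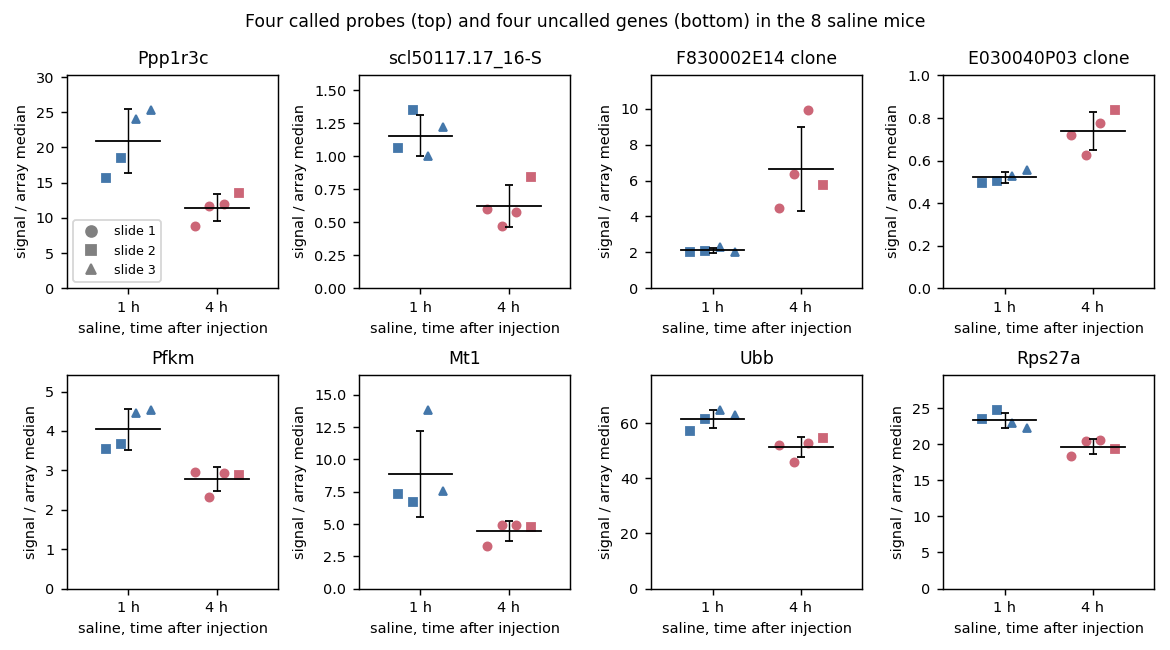
Signal over the array median of the tested probes (vertical axes, from 0) in the 8 saline mice. The top row holds 4 called probes and the bottom row Pfkm, Mt1, Ubb and Rps27a, which were not called. Each point is 1 mouse with its slide as the symbol, and bars give mean and SD over 4 mice. The mice at 4 h lie above those at 1 h for the 2 RIKEN clones and below them in the other panels, with no overlap in any.

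Of the clock genes, none was called. Of 33 listed, 11 are reported here, 7 through the probe identifier and 4 (Cry2, Dbp, Usp2, Nfil3) through a match to the formoterol ratios, and 5 of the 11 had an unadjusted p under 0.05 (13.8% of all probes did). Of the 7 with an identifier 3 did. The median log2 difference of the 11 was -0.13 and 10 lay below 0, as did 57.6% of all tested probes. Within slide 2 the median was -0.09 and 6 of the 11 lay below 0, against 51.2% of all. The 4 matched genes had been chosen for a formoterol to saline difference on these same saline arrays. For the 7 with an identifier the median over all slides was -0.17, and all 7 lay below 0.

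Among the activators, Rora, a receptor that activates through ROR elements, read 1.89, 2.16, 2.11 and 2.32 at 1 h and 1.76, 1.78, 1.81 and 1.70 at 4 h. Its 2 groups did not overlap, and the difference was -0.26 (SE 0.09, limma adjusted p = 0.256; -0.25 within slide 2). Clock, the partner of BMAL1, differed by -0.07 (limma adjusted p = 0.766; 0.03 within slide 2) with overlapping mice.

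Among the repressors and their kinases, Csnk1d (casein kinase 1 delta, which phosphorylates PER proteins) had the smallest p of the clock genes. It read 1.65, 1.69, 2.02 and 1.95 at 1 h and 1.24, 1.35, 1.5 and 1.55 at 4 h, without overlap (log2 -0.37, SE 0.09, limma adjusted p = 0.10). Within slide 2 the difference was -0.11, and a second Csnk1d probe gave -0.19 over all slides. Nr1d2 (REV-ERBβ) differed by -0.27 with a limma adjusted p of 0.357, but by 0.08 within slide 2, and was detected on 2 of 4 arrays at 1 h and 1 of 4 at 4 h. Csnk1e differed by -0.03 and Cry2 by -0.08, each less than its standard error.

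The outputs went both ways. Dbp, a D-box activator and one of the strongest cycling genes of many tissues, read 4.24, 4.21, 4.13 and 4.36 at 1 h and 5.79, 4.82, 6.84 and 5.54 at 4 h. The 4 mice at 1 h were almost level and all 4 at 4 h were higher, with a log2 difference of 0.43 (SE 0.17, limma adjusted p = 0.305; 0.39 within slide 2). Nfil3, which represses through the same D-box, read 2.11, 2.38, 2.15 and 1.78 at 1 h and 1.09, 1.10, 1.74 and 1.86 at 4 h. Its lower values came from saline 4 h replicates 1 and 2 and the groups overlapped, with a difference of -0.58 (SE 0.16, limma adjusted p = 0.165; -0.27 within slide 2). Noct, a clock-controlled phosphatase, differed by -0.08 on the probe named by its identifier, which is the one counted above. It differed by -0.41 (limma adjusted p = 0.18) on the brighter probe matched by its ratios. Usp2, a ubiquitin protease, differed by -0.13 and Pnp, a purine enzyme, by -0.17. None of these passed the test.

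**Figure D3:**
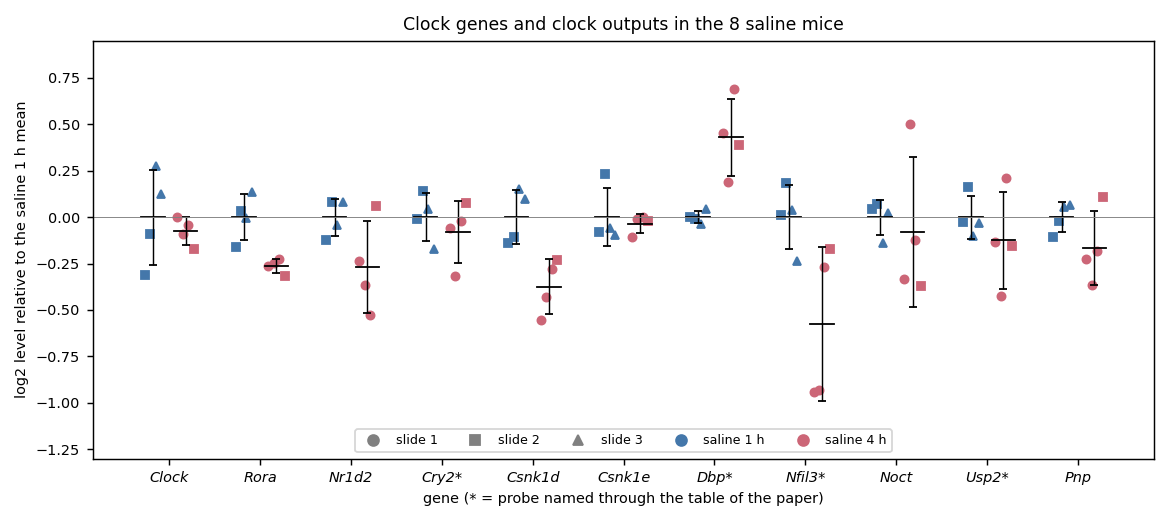
Log2 level relative to the gene's saline 1 h mean (vertical axis) of 11 clock genes and clock outputs in the 8 saline mice, 1 point a mouse with its slide as the symbol, and bars for mean and SD over 4 mice. Dbp lies higher at 4 h in every mouse, and Rora and Csnk1d lower in every mouse, while the other genes overlap.

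Nfil3 was the only one of the clock genes with a promoter entry that held one of the 5 motifs. Its 250 bases before the start (RefSeq, GRCm38.p6, chr13:52981040-52981289, minus strand) are shown for that reason, with the ROR element in capitals, read on the other strand and beginning 12 bases before the start. The element was in 2.23% of all windows.

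Nfil3: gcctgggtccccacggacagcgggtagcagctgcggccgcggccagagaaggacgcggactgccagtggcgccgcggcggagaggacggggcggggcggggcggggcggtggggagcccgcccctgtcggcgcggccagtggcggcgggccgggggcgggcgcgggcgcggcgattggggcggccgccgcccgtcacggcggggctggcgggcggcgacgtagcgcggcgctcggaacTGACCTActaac

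Of the genes of the handling and glucocorticoid response none was called. Of 10 measured by identifier, 8 had a difference below 0 (57.6% of all probes did) and 4 an unadjusted p under 0.05, all lower (8.31% of all probes), and the list's median was -0.30 (-0.07 within slide 2). Mt1, a metal-binding metallothionein, read 7.35, 6.73, 13.8 and 7.56 at 1 h and 3.30, 4.90, 4.90 and 4.78 at 4 h. Every mouse at 4 h was lower than every mouse at 1 h, 1 of which (replicate 3) was far above the rest, and the difference was -0.94 (SE 0.22, limma adjusted p = 0.0962; -0.56 within slide 2). Its neighbour Mt2 read 0.621 to 1.21 at 1 h and 0.460 to 0.615 at 4 h (log2 -0.53, limma adjusted p = 0.36). Cebpb, a bZIP factor induced by hormones and cytokines, read 5.18, 6.28, 3.72 and 4.61 against 2.57, 3.04, 3.74 and 3.38, with 1 mouse of each time overlapping (log2 -0.62, SE 0.17, limma adjusted p = 0.141; -0.76 within slide 2). Foxo1, a fasting-responsive factor, read 0.534 to 0.654 against 0.320 to 0.513 (log2 -0.51, limma adjusted p = 0.158) and was above the 0.99 detection score on no array at 4 h. Against the lowest detected signal of each of those arrays it was at least 1.18-fold higher at 1 h. Cebpb and Foxo1 are named after their values were seen. Gadd45a, a growth arrest gene, differed by -0.17 with overlapping mice. Mt2 and Gadd45a were named through their formoterol to saline ratios, and their genes were chosen for that response on these same arrays.

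Of the immediate-early genes, which rise within an hour of many stimuli, none of 6 was called, and their median was -0.03. Among the 6, Junb and Nr4a2 were above the 0.99 detection score on no saline array and were kept only through the formoterol arrays. Their lack of a call after saline therefore says little. Klf2, a factor responsive to flow and cAMP, had the smallest p, at 0.31 (SE 0.12, limma adjusted p = 0.305). Of those matched by their ratios, Fos read 0.510 to 1.16 at 1 h and 0.507 to 0.912 at 4 h (log2 -0.19, but 0.35 within slide 2). Atf3 and Csrnp1 were above the 0.99 detection score on no saline array and Maff on 1, so no change is given for them.

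Heat shock genes had a median of -0.04 over 9 genes, none called, with Chordc1, a partner of HSP90, at -0.23 (limma adjusted p = 0.354). Of 3 genes of the unfolded protein response, the chaperone Hspa5 read 0.676 to 0.777 at 1 h and 0.917, 2.25, 0.881 and 0.782 at 4 h. The groups did not overlap, but most of the difference of 0.58 (limma adjusted p = 0.302) came from saline 4 h replicate 2, and within slide 2 it was 0.11. Among 11 antioxidant genes none was called and the median was -0.07. Fth1, the heavy chain of ferritin, read 12.7, 13, 16.6 and 12.9 against 11.5, 8.83, 11.8 and 11.2 (log2 -0.35, limma adjusted p = 0.204).

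In fuel metabolism, no fatty acid gene was called. Of 10 measured by identifier 3 had an unadjusted p under 0.05, all lower (8.31% of all probes), with a median of -0.19 (-0.25 within slide 2). Pnpla2, the lipase that starts triglyceride breakdown, read 6.27, 7.65, 6.76 and 6.80 at 1 h and 5.77, 3.77, 5.13 and 5.51 at 4 h, without overlap (log2 -0.46, SE 0.12, limma adjusted p = 0.121). Plin4, a coat protein of lipid droplets named after its values were seen, read 4.96 to 6.27 against 3.33 to 4.83 (log2 -0.48, limma adjusted p = 0.180). Pdk4, the kinase that shuts pyruvate out of oxidation in fasting, read 21.1, 24.3, 8.35 and 14.1 at 1 h and 11.3, 9.89, 10.2 and 9.58 at 4 h. Its 1 h mice spread widely, those of slide 2 above those of slide 3, and the difference was -0.62 over all slides (SE 0.22, limma adjusted p = 0.257), -1.24 within slide 2 and -0.05 without slide 2. Lpin1, a phosphatidate phosphatase and coactivator, read 2.77, 2.96, 3.17 and 3.88 against 2.35, 2.36, 2.63 and 2.01, without overlap (log2 -0.45, SE 0.11, limma adjusted p = 0.114; -0.51 within slide 2). Ucp3, a mitochondrial carrier, differed by -0.29 and Ppargc1a, the coactivator of mitochondrial genes, by -0.08, with overlapping mice. Pdk4, Lpin1, Ucp3 and Ppargc1a were named through their formoterol to saline ratios, and their genes were chosen for that response on these same arrays. The 8 lipid and sterol synthesis genes had a median of 0.05, with Fdps, a sterol pathway enzyme, at -0.12, while Pmvk, matched by its ratios, was above the 0.99 detection score on no saline array.

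The 14 glucose and glycogen genes measured by identifier had a median of 0.03 and none was called. One of the 2 probes of Pfkm, muscle phosphofructokinase, was the named probe nearest to the threshold. It read 3.53, 3.67, 4.46 and 4.52 at 1 h and 2.96, 2.33, 2.93 and 2.88 at 4 h, without overlap (log2 -0.54, SE 0.10, limma adjusted p = 0.0504), whereas the brighter probe read 47.2 to 65.2 against 45.3 to 55.7 (log2 -0.12). Pfkfb3, which makes the activator of phosphofructokinase and is named after its values were seen, read 2.07, 2.62, 4.43 and 2.71 against 6.73, 4.53, 7.99 and 3.29. It was the largest positive difference among the named genes, but 1 mouse of each time overlapped (log2 0.91, SE 0.25, limma adjusted p = 0.158; 0.50 within slide 2). Hk2, hexokinase 2, named through its formoterol to saline ratios on these same arrays, differed by -0.21 with overlapping mice.

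Protein breakdown showed no called gene among those reported here. Of the list of ubiquitin, atrophy and autophagy genes, 8 were measured by probe identifier, with a median of -0.06 (-0.11 within slide 2), against -0.02 over all probes, and 2 had an unadjusted p under 0.05, both lower (8.31% of all probes). Ubb, which encodes a chain of ubiquitin units joined head to tail, had the smallest p of the list. It read 57.1, 61.6, 64.7 and 63.1 at 1 h and 52, 46.1, 53 and 54.7 at 4 h, a log2 difference of -0.26 (SE 0.08, limma adjusted p = 0.180). The highest mouse at 4 h lay under the lowest at 1 h, as at 240 probes of the array (3.16%). Sqstm1, the autophagy adaptor p62, differed by -0.24 with an unadjusted limma p of 0.0279, but its mice overlapped and it differed by 0.08 within slide 2. Map1lc3b, an autophagosome protein, differed by -0.02 (-0.12 within slide 2) and Ctsb, a lysosomal protease, by 0.11 (-0.25 within slide 2). Among 14 proteasome subunits none was called, 3 had an unadjusted p under 0.05, all lower (8.31% of all probes), and the median was -0.13 (-0.04 within slide 2). The smallest p was that of Psma2, a subunit of the core particle, at -0.28 (limma adjusted p = 0.158).

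Of 49 subunits of oxidative phosphorylation none was called and 36 lay below 0 (57.6% of all probes did). At an unadjusted p under 0.05, 5 were lower and 3 higher (8.31% and 5.52% of all probes). The median was -0.08 over all slides, -0.16 within slide 2 and -0.00 without saline 4 h replicates 2 and 4. Uqcrh, a hinge protein of complex III, read 33 to 35.6 at 1 h and 27 to 30.6 at 4 h (log2 -0.28, limma adjusted p = 0.152). Of 64 ribosomal protein genes none was called, 16 had an unadjusted p under 0.05 with a lower level and 1 with a higher one (8.31% and 5.52% of all probes), and the median was -0.10 (-0.29 within slide 2). The smallest p was that of Rps27a, which encodes a ribosomal protein made as a fusion with ubiquitin. It read 23.5, 24.7, 23 and 22.2 at 1 h and 18.4, 20.4, 20.6 and 19.3 at 4 h, without overlap (log2 -0.25, SE 0.06, limma adjusted p = 0.128). The 9 genes of IGF, insulin and mTOR signalling had a median of -0.14 and the 4 of myogenic and TGF-beta control one of -0.09, with Smad4 at -0.15. Cxcl14, the 1 chemokine measured by identifier, differed by -0.11. Of 3 interferon genes H2-K1, a class I antigen, read 0.634 to 0.830 against 0.891, 1.39, 0.886 and 0.841, the highest again in saline 4 h replicate 2 (log2 0.38, limma adjusted p = 0.249). Of 6 common reference genes none was called and the median was 0.01. Actb, cytoplasmic β-actin, had the smallest p of them, at 0.21 (limma adjusted p = 0.36) over all slides and -0.06 within slide 2, while Gapdh differed by -0.08, Ppia by 0.08 and Rplp0 by -0.05.

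By the naming rule, the genes nearest to a call among those higher at 4 h in every mouse were Pls3, Trim30a, Plcd4, Col22a1, Maf, Pcp4l1, Dcaf13 and Rasgrp3, with limma adjusted p of 0.0733 to 0.180 and therefore no call. Plcd4, a phospholipase C, was the most even of them, at 0.890, 0.873, 0.906 and 0.890 at 1 h and 1.10, 1.11, 1.09 and 1.19 at 4 h (log2 0.33, SE 0.07; 0.43 within slide 2). Pls3, an actin-bundling plastin, read 1.10 to 1.35 against 1.42 to 2.17 (log2 0.57; 0.22 within slide 2). Trim30a, an interferon-inducible TRIM protein, read 0.598 to 0.684 against 0.780 to 0.928 (log2 0.34). Col22a1, a collagen of the myotendinous junction, differed by 0.42 and the bZIP factor Maf by 0.44. On the lower side stood, beside genes already named, Slc38a3, a glutamine transporter (log2 -0.34, limma adjusted p = 0.0752), D19Wsu162e (-0.53), Mrpl23, a mitochondrial ribosomal protein (-0.35), and the RNA-binding Hnrnpa2b1 (-0.48). Of these, D19Wsu162e was named through its formoterol to saline ratios, and was chosen for that response on these same arrays.

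No marker of another cell type was called. In bulk muscle, fewer cells of a type and less RNA per cell cannot be told apart. Of the red blood cell list 3 genes were measured, and their summed ratio ran from 27.2 to 74.4 at 1 h and from 11.6 to 38.1 at 4 h. Hba-a1, an α-globin, had the largest fall in the fit among all probes without being called, reading 67.2, 52.5, 24.9 and 49.1 at 1 h and 34.2, 15.7, 10.2 and 13.6 at 4 h (log2 -1.46, SE 0.32, limma adjusted p = 0.0792; -2.12 within slide 2). Saline 1 h replicate 3 and saline 4 h replicate 1 made the groups overlap. Hbb-b1 differed by -0.90 (limma adjusted p = 0.33; -1.96 within slide 2) and Hbb-b2 by -0.53 (limma adjusted p = 0.307; -0.86 within slide 2), both with overlapping mice. Without slide 2 each differed by -0.22.

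The 8 fibroblast and matrix genes summed to 53.9 to 65.8 at 1 h and 58.1 to 78.9 at 4 h, with a median of 0.18 over all slides and -0.11 within slide 2. Col3a1 read 4.93, 3.70, 2.4 and 3.27 against 5.61, 14.3, 4.13 and 3.54, and Col1a2, a chain of type I collagen, read 4.14, 5.08, 3.12 and 3.56 against 5.37, 12.9, 4.53 and 4.00. Both were highest in saline 4 h replicate 2, and their differences of 0.76 and 0.61 became -0.27 and -0.20 within slide 2. Of the 8 genes 6 lay above 0, and the 2 below were the matrix protein Mgp (-0.35) and Dcn. Dcn read 20.9 to 23 at 1 h and 17.7 to 20.1 at 4 h, without overlap (log2 -0.18, limma adjusted p = 0.256; -0.29 within slide 2). The 4 leukocyte genes summed to 3.51 to 5.06 at 1 h and 3.14 to 4.06 at 4 h. Their median was -0.14 (0.11 within slide 2), and 2 of the 4 lay above 0. S100a9, a neutrophil calprotectin subunit, had the smallest p, at -0.47 with overlapping mice (limma adjusted p = 0.306; -0.09 within slide 2). The 3 endothelial genes had a median of 0.01, with Emcn at 0.25. Fat cells (Fabp4), Schwann cells (Pmp22), satellite cells (Vcam1) and slow fibre (Atp2a2) were each represented by 1 gene, at -0.12, 0.16, 0.01 and 0.10, each with the other sign within slide 2. The part of these cells in the differences above was not tested.

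**Figure D4:**
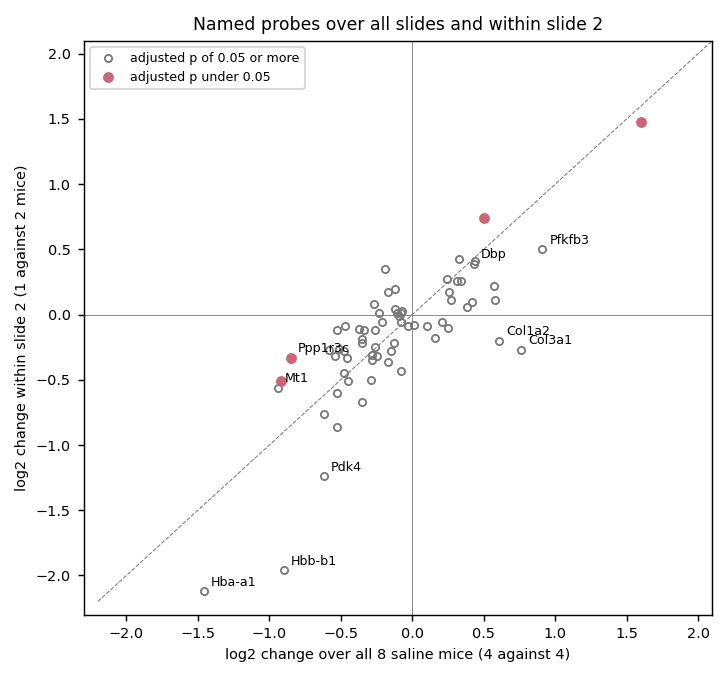
Log2 change over all 8 saline mice (horizontal axis, 4 against 4) and within slide 2 (vertical axis, 1 mouse at 4 h against 2 at 1 h) for the 68 named probes with a change given, 1 point a probe, called probes filled, with the line of equality dashed. The points of the called probes keep their sign, and Col1a2 and Col3a1 lie on opposite sides of 0 in the 2 comparisons.

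The slides carried differences of their own. A slide term in the fit was called at 7 probes (0.0922%) and had an unadjusted p under 0.05 at 1181 (15.5%). Of the 68 named probes with a change given, 52 had the same sign within slide 2 as over all slides, against 55.1% of all probes and 78.1% of those with an unadjusted p under 0.05. These within-slide values share 3 of the 8 arrays with the comparison itself and are given as a description.

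The mice given formoterol lay on the slides in the same way and share no array with the saline mice, so their change from 1 h to 4 h was set beside that after saline. After formoterol 414 probes (5.45%) were called between the times, 253 higher (3.33%) and 161 lower (2.12%). The change with time itself differed between the injections at 256 probes (3.37%), 89 (1.17%) with the more positive change after saline and 167 (2.2%) with the more negative. Of the 68 named probes 22 were among them. Many of the 68 were named for a small p of their saline change or for their formoterol response on these arrays. The count of 22 is therefore not independent evidence.

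Ppp1r3c read 23.6 to 31.6 at 1 h and 26.4 to 32.6 at 4 h after formoterol (log2 0.07), a difference of the changes of -0.93 (limma adjusted p = 0.0195). Mt1 went from 17.8 to 33.5 to 44 to 60.8 after formoterol (log2 1.07, limma adjusted p = 0.00477), and the changes differed by -2.02 (limma adjusted p = 0.000909). Of the clock genes the changes differed for Rora (-0.55, limma adjusted p = 0.0223), Nfil3 (-1.37, limma adjusted p = 0.00183), Usp2 (-1.37, limma adjusted p = 0.000511) and Cry2 (-1.15, limma adjusted p = 0.000128). For Usp2 and Cry2 the saline differences were -0.13 and -0.08 with overlapping mice, and the formoterol levels rose by 1.25 and 1.07. Nfil3, Usp2, Cry2 and Ppp1r3c were matched by formoterol ratios and belong to genes chosen for their formoterol response on these arrays, so their differences are not independent evidence. Dbp differed by 0.43 after saline and rose by 0.78 after formoterol, from 0.674 to 1.3 at 1 h to 1.15 to 1.97 at 4 h. The difference of its changes, -0.35 (SE 0.25, limma adjusted p = 0.605), did not pass the test.

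**Figure D5:**
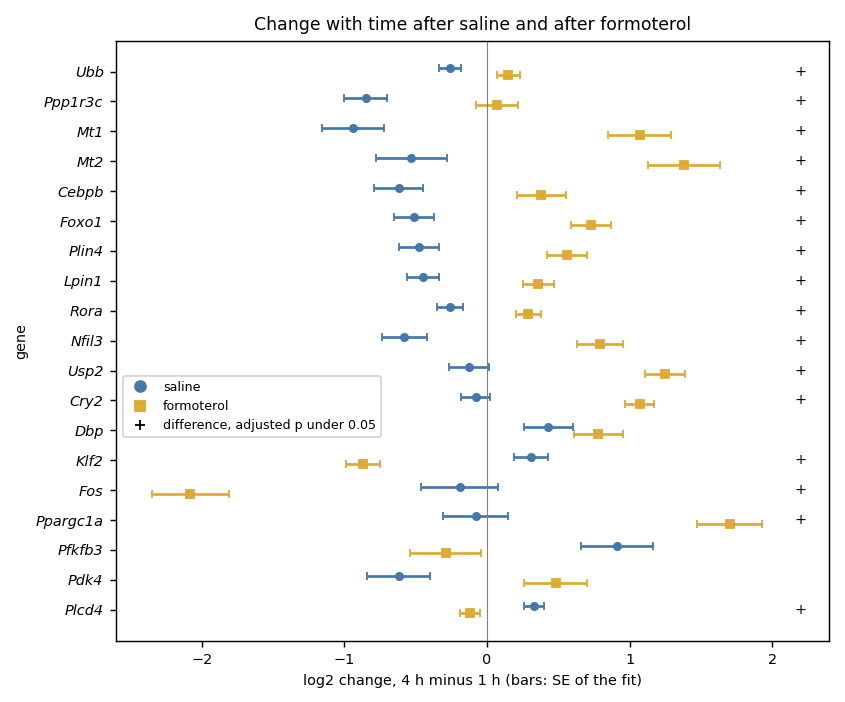
Log2 change from 1 h to 4 h (horizontal axis) after saline (circles) and after formoterol (squares) for 19 of the named genes, with bars for the SE of the fit and a plus where the difference of the changes had an adjusted p under 0.05. Ubb, Mt1 and Nfil3 lie left of 0 after saline and right of it after formoterol, and Dbp lies right of 0 after both.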

How the data were processed

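The sources were Illumina Sentrix Mouse-6 arrays of 16 mice, 8 of them given saline. The intensity per probe was exported from BeadStudio 1.5.1.3 per the labels and the submitters' processing notes. The detection score (0 to 1) was deposited beside it. The authors' ratio sets a probe's intensity over the median of the kept probes on its array, and was recomputed within a relative 0.0016 for kept probes. Probes with a score of 1 on at least 4 arrays were kept (7596), and log2 of the deposited ratio was fitted with limma 3.58.1 (R 4.3.3), with 4 group means over 16 arrays, two-sided, and Benjamini-Hochberg adjustment. No pseudocount was used. Array number limits the precision. The p-values set a difference against the spread between mice within groups, pooled over the 4 groups, and that spread also holds slide and array differences.

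Genes were named from the gene number or accession in the probe identifier through the RefSeq gene table of GRCm38.p6. These names were inferred, covering 2591 kept probes (34.1%) and 2388 genes. A further 76 probes were named by matching formoterol to saline ratios with those of 116 published genes, of which 107 matched exactly 1 probe (within 0.0075), and of 31 probes named both ways 24 agreed in name. Matched probes enter no list count except that of the clock genes. No change is given for 4 named probes above the 0.99 score on at most 1 saline array. Other probes stayed unnamed, and a few genes are not reported here. A list takes 1 probe a gene, the brightest of those named by identifier.

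Named genes were the called ones without overlap between times, filled up to 8 each way by smallest p, every measured clock gene, the called or smallest-p member of each other list, up to 2 unnamed probes each way, and matched clock, stress and metabolism genes. Hbb-b1, Hbb-b2, Cebpb, Plin4, Col3a1 and Col1a2 were added outside these rules and are among the named probes counted. The members, lists and rules were chosen with earlier results of these data known. The spread of 26 alternative settings, 1 of them (without saline 4 h replicates 2 and 4) chosen after seeing the data, is given at the end.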

Additional observations from a re-analysis of the deposited data

Results flagged for a closer look

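The change from 1 h to 4 h differed between saline and formoterol at 22 of the 68 named probes with a change given, by limma's test of that difference. The first number for each gene is the saline change minus the formoterol change on the log2 scale, and the second is its limma adjusted p. The saline change was the more negative for Cry2 (-1.15, 0.000128), Usp2 (-1.37, 0.000511), Mt1 (-2.02, 0.000909), D19Wsu162e (-1.05, 0.00122), Foxo1 (-1.24, 0.00144), Nfil3 (-1.37, 0.00183), Ppargc1a (-1.78, 0.00313), Mt2 (-1.92, 0.00418), Plin4 (-1.05, 0.0049), Lpin1 (-0.80, 0.00634), the probe scl50117.17_16-S (-1.04, 0.0174), Ppp1r3c (-0.93, 0.0195), Rora (-0.55, 0.0223), Cebpb (-1.0, 0.0223), Gadd45a (-1.04, 0.0274) and Ubb (-0.41, 0.044). It was the more positive for Klf2 (1.18, 0.000826), the RIKEN clone E030040P03 probe (0.80, 0.00155), Fos (1.88, 0.00795), Plcd4 (0.45, 0.0174), Rasgrp3 (0.46, 0.0231) and Emcn (0.70, 0.0442). Foxo1 was above the 0.99 detection score on none of the 4 saline arrays at 4 h and the E030040P03 probe on 1 of the 4 at 1 h, so the size of their saline change is uncertain. Genes matched by their formoterol ratios were chosen on these arrays, and others were named for a small p of their saline change. Such differences are not independent evidence. Among the 22 probes, Ppp1r3c is the named gene whose change after saline was itself called.

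In 12 of 142 groups of 4 mice 1 sample lay far from the other 3 (Dixon's test at the 95% level, which chance passes in about 1 group in 20). Saline 4 h replicate 2 was the far sample for Fth1 (8.83), H2-K1 (1.39), Hspa5 (2.25) and Pfkm (2.33). Saline 4 h replicate 1 was far for Csnk1e (1.43), Klf2 (0.878) and Mt1 (3.30), and saline 4 h replicate 4 for Plcd4 (1.19). At 1 h the far samples were replicate 3 for Fth1 (16.6) and Mt1 (13.8), replicate 2 for Csnk1e (1.81) and replicate 4 for Mrpl23 (8.17). The values are ratios to the median of the tested probes on the array.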

How the results depend on the processing

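The calls depended on the setting, and the cause was not tested. The reported counts are 2 probes higher and 5 lower, 3 called at 1.5-fold and 2 at the study's own, larger fold, and 89 and 167 probes with a more positive and a more negative change after saline than after formoterol. With normexp and quantile normalization the 4 time counts were all 0, as they were with slide as a fixed block. At an adjusted p under 0.01 they were also all 0, with 31 and 83 for the difference between injections. The methods' t-test, on log2 or on linear ratios, called 1 higher, 0 lower, 0 at 1.5-fold and 0 at the larger fold. In both forms the called probe was not among those reported. The 8 saline arrays alone gave 1 higher, 0 lower, 1 at 1.5-fold and 1 at the larger fold, a trended robust prior 0, 2, 0 and 0, and slide as a random block 1, 2, 1 and 1. Quantile normalization gave 1 lower and 1 at the larger fold. A floor on low ratios, a stricter detection filter and a pseudocount of 0.1 each gave 8 lower, and the last gave 1 at the larger fold. Without the filter on dim probes there were 1 higher, 10 lower, 11 at 1.5-fold, 10 at the larger fold, and 28 and 90 for the difference. Signal over background as a covariate gave 6 higher and 1 at the larger fold. Array weights gave 105, 161, 27 and 7, and 164 and 272 for the difference. Slide 2 alone gave 19 lower, 21 at 1.5-fold, 15 at the larger fold and 98 for the more negative difference. Without slide 2 there were 100 higher, 127 lower, 99 at 1.5-fold, 40 at the larger fold and 35 for the more positive difference.

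Leaving out 1 saline array at a time gave 0 to 40 higher, 0 to 44 lower, 0 to 23 at 1.5-fold, 0 to 11 at the larger fold, and 64 to 111 and 140 to 196 for the difference. No probe was called when saline 1 h replicate 2 or 4, or replicate 3 of saline 4 h, was left out, while 84 were called without saline 4 h replicate 4, all 7 of the reported ones among them, and 28 without saline 1 h replicate 1. Without both saline 4 h replicates 2 and 4 there were 6 calls, 4 of them shared. The deviations of same-numbered mice had correlations of -0.218 to 0.247, and only replicate 3 deviated most like its own number. So few values cannot settle whether the numbers pair the mice. A replicate block gave 10 higher, 17 lower, 10 at 1.5-fold and 6 at the larger fold.

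For the 68 named probes with a change given, 1599 of 1764 values kept their direction and side of the threshold, 55 lost and 65 gained a call, and 45 turned in sign, all of them for probes without a call. Other list members and second probes are outside these counts and the genes listed next. Sqstm1, Ctsb, Gapdh, Ppia and Rplp0 are such members whose sign also turned within slide 2. The sign turned within slide 2 for Nr1d2 (0.0779), Pnp (0.17), Clock (0.0318), Cry2 (0.0122), Chordc1 (0.0119), Fdps (0.0414), Fos (0.353), Cxcl14 (0.01), Fabp4 (0.198), Actb (-0.0604), Atp2a2 (-0.0875), Vcam1 (-0.079), Emcn (-0.0973), Pmp22 (-0.18), Col3a1 (-0.27) and Col1a2 (-0.20). With slide as a fixed block it turned for Pnp (0.054), Fos (0.607), Fabp4 (0.0894), Actb (-0.0255), Vcam1 (-0.155), Emcn (-0.0151), Pmp22 (-0.0755) and Col3a1 (-0.0929), and without slide 2 for Ucp3 (0.0351), Csnk1e (0.0356), Noct (0.0701) and Gadd45a (0.139). It turned for Actn3 with quantile normalization (0.0234), also after normexp (0.0231), for Vcam1 with array weights (-0.0994) and slide as a random block (-0.00256), and without both saline 4 h replicates 2 and 4 for Ppargc1a (0.0283), Usp2 (0.0381) and Vcam1 (-0.0742). Leaving out 1 saline array at a time gave values on both sides of 0 for Clock (-0.177 to 0.0177), Fos (-0.371 to 0.0241), Csnk1e (-0.0652 to 0.0424), Noct (-0.279 to 0.0132), Cxcl14 (-0.223 to 0.00837), Fabp4 (-0.26 to 0.0111) and Vcam1 (-0.0604 to 0.0821). Signal over background was only 2.33 to 3.74, which limits what a dim probe can show, and the 1 mouse at 4 h on slide 2 limits every within-slide value.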
